A study of Mus musculus with 6 samples.

Results

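The cluster of miR-322, miR-503, miR-351, miR-542, and miR-450 is a group of miRNA hairpins that lie next to each other on mouse chromosome X. Its members here were the 10 mature miRNAs mmu-miR-322-5p, mmu-miR-322-3p, mmu-miR-503-5p, mmu-miR-503-3p, mmu-miR-351-5p, mmu-miR-351-3p, mmu-miR-542-3p, mmu-miR-542-5p, mmu-miR-450a-5p, and mmu-miR-450b-5p (the species prefix is left out from here on), taken by name from the 1831 mature miRNAs of the deposited array table, and all 10 were found there. Small RNAs were measured in the small intestinal mucosa of 3 littermates with a wildtype label and of 3 Cdr1as-/- mice, 1 array per mouse, to see which miRNAs change when the circular RNA Cdr1as is absent. The Cdr1as-/- mice lacked the Cdr1as locus, deleted by CRISPR/Cas9 on a C57BL/6J background, and both groups went without food for a day before the tissue was taken. The sample labels give neither age nor sex. The Cdr1as gene is itself on chromosome X, but its transcript is no miRNA and was not analysed here, so the array does not check the genotype labels.

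A miRNA hairpin is cut from a longer transcript and then trimmed to a duplex, whose 5p and 3p strands can each be loaded into an Argonaute protein and pair with target mRNAs mainly through the seed, bases 2 to 8. Strands of one hairpin are made together but can be kept at different levels, since the strand that is not loaded is usually degraded. The rodent miR-322 is the counterpart of human miR-424, and miR-322 and miR-503 are known for restraining cell cycle genes such as cyclins and for their roles in muscle differentiation. miR-351-3p was known to be lower in these same arrays when the cluster was chosen, so its direction below is a description, while its partners and its other strand are what was compared.

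The mature sequences are shown because they set apart the strands that share a seed with other families from those that share none. All 10 matched RefSeq by name, and the sequence in the deposited table was the same as in RefSeq for each. Letters are 5′ to 3′, with the seed in capitals.
miR-322-5p: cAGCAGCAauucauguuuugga
miR-322-3p: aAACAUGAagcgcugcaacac
miR-503-5p: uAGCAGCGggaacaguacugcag
miR-503-3p: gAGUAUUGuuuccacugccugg
miR-351-5p: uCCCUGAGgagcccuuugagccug
miR-351-3p: gGUCAAGAggcgccugggaac
miR-542-5p: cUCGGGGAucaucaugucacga
miR-542-3p: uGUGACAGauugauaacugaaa
miR-450a-5p: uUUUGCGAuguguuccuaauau
miR-450b-5p: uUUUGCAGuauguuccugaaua
miR-16-5p: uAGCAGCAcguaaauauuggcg
miR-125b-5p: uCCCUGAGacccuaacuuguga

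The last 2 lines are not members and stand for the families that share a seed with the cluster. miR-322-5p had the seed AGCAGCA of miR-16-5p, which 11 miRNAs of the table carried, and miR-503-5p the seed AGCAGCG. miR-351-5p had the seed CCCUGAG of miR-125b-5p, carried by 5 miRNAs of the table. The seeds of miR-322-3p, miR-503-3p, and miR-351-3p were each found in 1 miRNA of the table, the member itself. Thus, within the mir-351 hairpin the 5p strand shares its seed with other miRNAs of the table and the 3p strand does not.

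In the mouse build GRCm38.p6, RefSeq places the members in 7 hairpins on the minus strand of chromosome X, within 6284 base pairs. In the direction of transcription the order is Mir322 (miR-322-5p at chrX:53054306-53054327 and miR-322-3p at chrX:53054269-53054289), Mir503 (miR-503-5p at chrX:53054027-53054049 and miR-503-3p at chrX:53053987-53054008), and Mir351 (miR-351-5p at chrX:53053315-53053338 and miR-351-3p at chrX:53053276-53053296). These first 6 members lie inside the span of C430049B03Rik, a long noncoding RNA gene. After a gap come Mir542 (miR-542-5p at chrX:53049453-53049474 and miR-542-3p at chrX:53049415-53049436), both copies that give miR-450a-5p (chrX:53048339-53048360 and chrX:53048206-53048227), and Mir450b (miR-450b-5p at chrX:53048044-53048065). Because miR-450a-5p is made from both copies with one sequence, its level is the sum of both.

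All levels below are normalized log2 intensities from the deposited table, each the log2 of the mean of the unlogged values of up to 5 probes for one miRNA. Levels of different miRNAs were not compared, since probes differ in brightness. One array stood apart: the median signal over miRNA probes was 236 on littermate 3 and between 8.75 and 29.2 on the other 5, and 100% of the miRNA probes of littermate 3 were well above background. Each result is therefore given with all 6 arrays and without littermate 3. On Cdr1as-/- mouse 2, 41.5% of the miRNA probes were well above background, against 66.8% to 100% on the others. The summed level of 8 epithelial markers was between 17.05 and 17.17 (log2) on the other 5 arrays and 16.04 on littermate 3. That sum was carried by miR-194-5p and miR-215-5p, and on littermate 3 all 8 markers were below the mean of littermates 1 and 2, the other 6 with log2 differences from -4.24 to -2.38. Whether the array of littermate 3 differed through its RNA, its labelling or its cells was not tested. In bulk mucosa, fewer cells of a type and less of a miRNA per cell cannot be told apart.

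miR-351-3p, the 3p strand of the mir-351 hairpin, was lower in Cdr1as-/- mice at an unadjusted p but not after adjustment over all miRNAs. Littermates 1, 2, and 3 had levels of 6.32, 6.33, and 6.46, while Cdr1as-/- mice 1, 2, and 3 had 5.66, 5.85, and 5.76. Every Cdr1as-/- mouse was below every littermate, and the mean over probes placed littermate 3 with the other littermates. The group means were 6.37 ± 0.08 (SD, n = 3) for littermates and 5.76 ± 0.09 (SD, n = 3) for Cdr1as-/- mice, a log2 difference of -0.61 with a standard error of 0.21, or 0.653-fold (limma, unadjusted p = 0.0239, adjusted p over the 1831 miRNAs = 1.0). The exact permutation p was 0.1, the smallest that 3 mice against 3 can give. Without littermate 3, the log2 difference was -0.57 with a standard error of 0.23 (limma, unadjusted p = 0.0337, adjusted p = 0.360). The littermates were unusually close together for miR-351-3p, since 97.1% of the miRNAs had a larger SD over the 3 littermates.

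**Figure D1:**
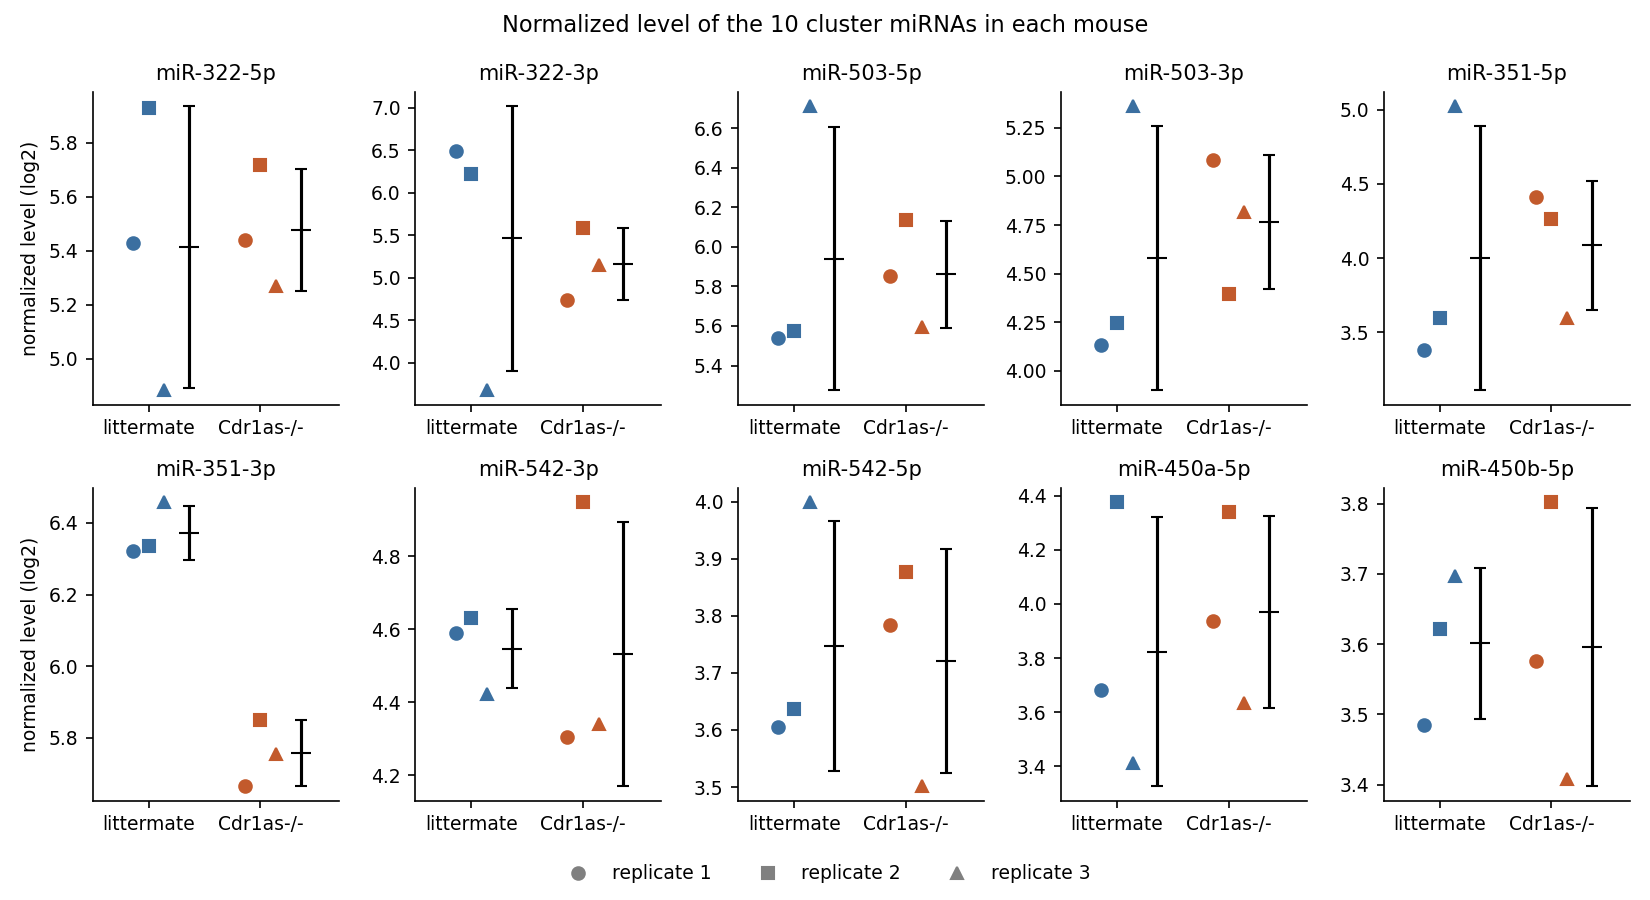
Normalized log2 level (vertical axis, its own range in each panel) of the 10 cluster miRNAs in 3 littermates (blue) and 3 Cdr1as-/- mice (orange). Circles, squares, and triangles are replicates 1, 2, and 3, and bars are the mean ± SD of 3 mice. miR-351-3p is the panel in which the groups do not overlap, and littermate 3 (blue triangle) lies above or below both other littermates in every panel.

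Each of the 5 probes for miR-351-3p, taken alone in a comparison chosen after seeing the data, had a lower mean in Cdr1as-/- mice, with log2 differences from -0.65 to -0.49. In 4 of the 5 probes, all Cdr1as-/- mice were below all littermates. The fifth had 7.0, 7.14, and 6.20 in littermates 1, 2, and 3, against 5.89, 6.67, and 6.32 in Cdr1as-/- mice 1, 2, and 3, so littermate 3 fell among the Cdr1as-/- mice. The second probe went the other way on that array, with 6.37, 6.55, and 7.43 in littermates 1, 2, and 3, so the closeness of littermate 3 to the others, and the littermate SD of 0.08, held for the mean over probes and not for each of them. Without littermate 3, all 5 probes separated the groups. The probes read the same miRNA in the same RNA and are not independent measurements of the mice.

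The size of the difference depended on the scaling and on the probes used. With the scanner signal taken relative to each array's 75th percentile of detected probes, miR-351-3p was at -1.96, -1.79, and -2.20 in the littermates and at -3.05, -2.06, and -2.50 in the Cdr1as-/- mice (log2). There the groups overlapped, since Cdr1as-/- mouse 2 was above littermate 3, and the log2 difference was -0.55 (limma, unadjusted p = 0.255) while the median over all miRNAs was -0.19. This setting took the brightest probe of each miRNA, here the fifth, in which the groups also overlapped in the deposited values. With the linear mean over the probes, the scaled scanner signal gave a log2 difference of -0.71 (limma, unadjusted p = 0.105). miR-351-3p was lower in all 17 other settings tried, with log2 differences from -0.71 to -0.33, and 4 of them kept an unadjusted p below 0.05. With 1 array left out, the unadjusted limma p over all miRNAs rose above the threshold without littermate 1 (0.0574), without littermate 2 (0.0766), without Cdr1as-/- mouse 1 (0.0978), and without Cdr1as-/- mouse 3 (0.0647). Within the slide that held both groups, Cdr1as-/- mouse 1 differed from the mean of the 3 littermates by -0.71 on the log2 scale, and with the slide as a block the unadjusted limma p was 0.102.

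The other strand of the same hairpin, miR-351-5p, which carries the miR-125 seed, had no lower mean in the deposited values. It was at 3.38, 3.59, and 5.02 on the arrays of littermates 1, 2, and 3, compared with 4.41, 4.26, and 3.59 on those of Cdr1as-/- mice 1, 2, and 3. Littermate 3 was the highest of all and littermate 2 was level with Cdr1as-/- mouse 3. The log2 difference was 0.09 with a standard error of 0.50 over 6 arrays (95% confidence interval -1.13 to 1.31) and 0.60 with a standard error of 0.30 without littermate 3 (limma, unadjusted p = 0.0732, adjusted p = 0.388). miR-351-5p was read by 2 probes, and neither was well above background on the array of Cdr1as-/- mouse 2, where 41.5% of miRNA probes were. The first sat at the lowest value of its array in littermate 1 (2.80), and without littermate 3 it gave a log2 difference of 1.07, against 0.25 from the second. With the scaled scanner signal, which took the second probe alone, the difference was -0.57 over 6 arrays. That probe alone gave -0.25 over 6 arrays in the deposited values. With the linear mean over both probes, the scaled scanner signal gave -0.30. The direction thus turned with the signal and the probes used, and their parts were not tested. The per-array difference of miR-351-3p minus miR-351-5p averaged 2.37 ± 0.82 (SD, n = 3) for littermates against 1.67 ± 0.46 (SD, n = 3) for Cdr1as-/- mice, a difference of -0.70 with overlapping groups (exact permutation p = 0.3). Without littermate 3 it was -1.17, with every Cdr1as-/- mouse below littermates 1 and 2 (exact permutation p = 0.2). These differences contain the level of miR-351-3p, which was known to be lower.

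**Figure D2:**
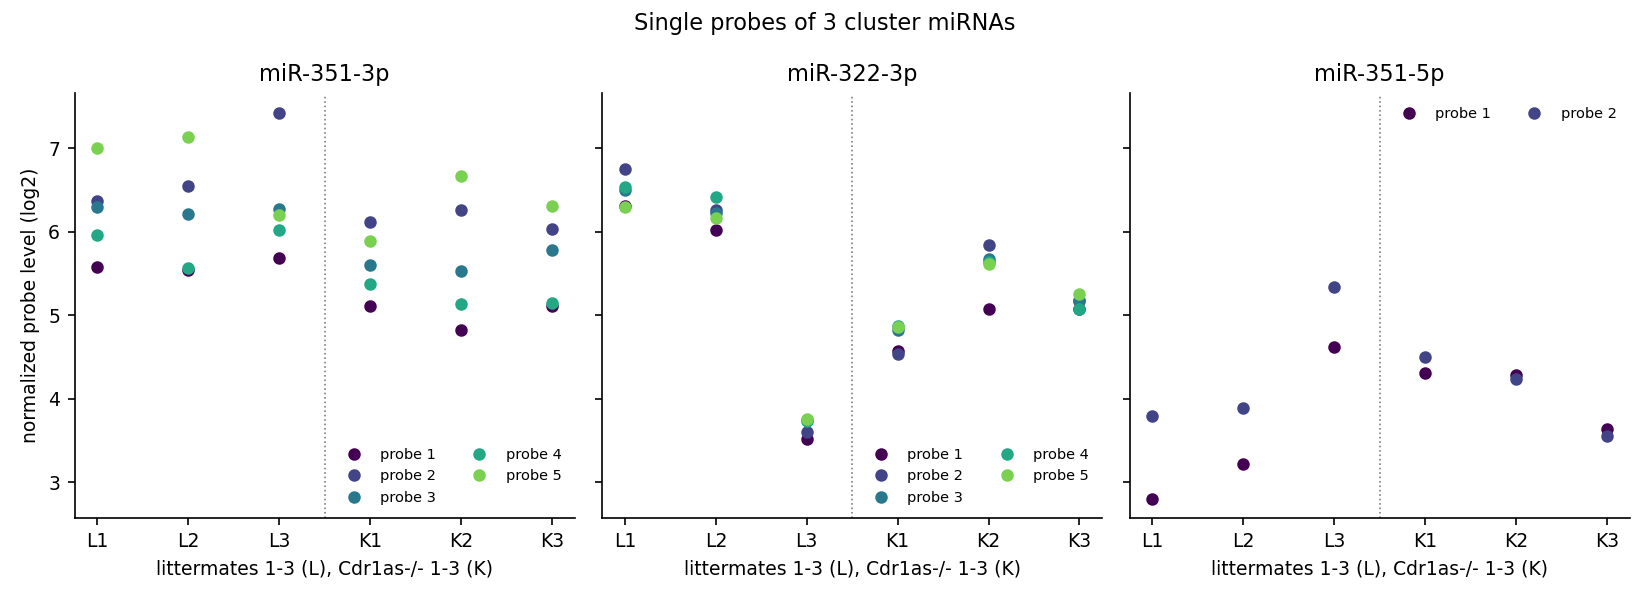
Normalized log2 level (vertical axis) of the single probes of miR-351-3p, miR-322-3p, and miR-351-5p on the 6 arrays, littermates 1 to 3 (L) to the left of the dotted line and Cdr1as-/- mice 1 to 3 (K) to the right. Colours are probes. All 5 probes of miR-322-3p are lowest on the array of littermate 3, and both probes of miR-351-5p are highest there.

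miR-322-3p, the 3p strand of the first hairpin, was the member that turned most on littermate 3. Littermates 1, 2, and 3 had levels of 6.49, 6.22, and 3.67, while Cdr1as-/- mice 1, 2, and 3 had 4.74, 5.59, and 5.15. Littermates 1 and 2 were above every Cdr1as-/- mouse and littermate 3 was below every one. Before normalization its probe signals were highest on littermate 3, at 100 to 119 against 17.9 to 40.6 on the other arrays. The low level there is thus relative to an array with a median signal of 236. Over 6 arrays, the log2 difference was -0.30 with a standard error of 0.77 (limma, unadjusted p = 0.711, adjusted p = 1.0). Without littermate 3, it was -1.20 with a standard error of 0.29, or 0.437-fold (limma, unadjusted p = 0.00285, adjusted p = 0.247), which placed miR-322-3p at rank 10 of 1831 by p. All 5 of its probes then separated the groups, and the scaled scanner signal without littermate 3 gave -1.24 (limma, unadjusted p = 0.0121).

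miR-322-5p, the strand with the miR-15/16 seed, had 5.43, 5.93, and 4.88 in littermates 1, 2, and 3, against 5.44, 5.72, and 5.27 in Cdr1as-/- mice 1, 2, and 3. The groups overlapped with and without littermate 3. The log2 difference was 0.06 with a standard error of 0.33 over 6 arrays and -0.20 with a standard error of 0.27 without littermate 3 (limma, unadjusted p = 0.854 and 0.470). The per-array difference of miR-322-3p minus miR-322-5p was 1.06 and 0.29 for littermates 1 and 2, -1.21 for littermate 3, and -0.70, -0.13, and -0.12 in the Cdr1as-/- mice. No difference was detected over 6 arrays (exact permutation p = 0.7), and without littermate 3 it was lower in all Cdr1as-/- mice by 0.99 on average (exact permutation p = 0.1, the smallest that 3 mice against 2 can give).

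Both strands of the mir-503 hairpin had levels that were high on littermate 3. miR-503-5p, a relative of the miR-15/16 family by seed, was at 5.54, 5.58, and 6.71 in littermates 1, 2, and 3, against 5.85, 6.14, and 5.60 in Cdr1as-/- mice 1, 2, and 3. miR-503-3p was at 4.13, 4.24, and 5.36 in littermates 1, 2, and 3, against 5.09, 4.40, and 4.82 in Cdr1as-/- mice 1, 2, and 3. In each strand the Cdr1as-/- mice lay between littermates 1 and 2 below and littermate 3 above. The log2 differences over 6 arrays were -0.08 with a standard error of 0.39 for miR-503-5p and 0.19 with a standard error of 0.41 for miR-503-3p. Without littermate 3 they were 0.30 and 0.58, with standard errors of 0.25 and 0.27 (limma, unadjusted p = 0.259 and 0.0614). None of the 5 probes of miR-503-3p was well above background on the array of Cdr1as-/- mouse 2, where 41.5% of miRNA probes were.

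The downstream hairpins gave small differences in both settings. miR-542-3p was at 4.59, 4.63, and 4.42 in littermates 1, 2, and 3, against 4.30, 4.95, and 4.34 in Cdr1as-/- mice 1, 2, and 3, with a log2 difference of -0.02 and a standard error of 0.27. miR-542-5p was at 3.60, 3.64, and 4.0 in littermates 1, 2, and 3, against 3.78, 3.88, and 3.50 in Cdr1as-/- mice 1, 2, and 3, with a log2 difference of -0.03 and a standard error of 0.24. In both strands of this hairpin the groups overlapped. miR-450a-5p was at 3.68, 4.38, and 3.41 in littermates 1, 2, and 3, against 3.94, 4.34, and 3.63 in Cdr1as-/- mice 1, 2, and 3, with a log2 difference of 0.15 and a standard error of 0.35. miR-450b-5p was at 3.48, 3.62, and 3.70 in littermates 1, 2, and 3, against 3.58, 3.80, and 3.41 in Cdr1as-/- mice 1, 2, and 3, with a log2 difference of -0.01 and a standard error of 0.22. Here too the groups overlapped, and without littermate 3 these 4 members had log2 differences from -0.08 to 0.10.

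These 4 members were dim. Single probes sat at the lowest value that an array's normalization gave (3 of 30 probe readings for miR-450a-5p and 4 of 30 for miR-450b-5p). On the array of Cdr1as-/- mouse 2, no probe of miR-542-5p, miR-450a-5p, or miR-450b-5p was well above background, nor were 3 of the 5 probes of miR-542-3p. Only 41.5% of all miRNA probes were so on that array, so this is not particular to these members. The probe signals of miR-450a-5p were 9.65 to 16.7 there. They were 4.77 to 8.04 on Cdr1as-/- mouse 3, where 4 of its 5 probes were well above background. Over 6 arrays, the 95% confidence intervals ran from -0.66 to 0.63 for miR-542-3p, from -0.61 to 0.56 for miR-542-5p, from -0.69 to 0.99 for miR-450a-5p, and from -0.55 to 0.54 for miR-450b-5p. The 3p strands of the miR-450 hairpins that are no members, miR-450a-1-3p, miR-450a-2-3p, and miR-450b-3p, had log2 differences of -0.09, -0.21, and -0.12 (limma, unadjusted p = 0.671, 0.500, and 0.687).

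**Figure D3:**
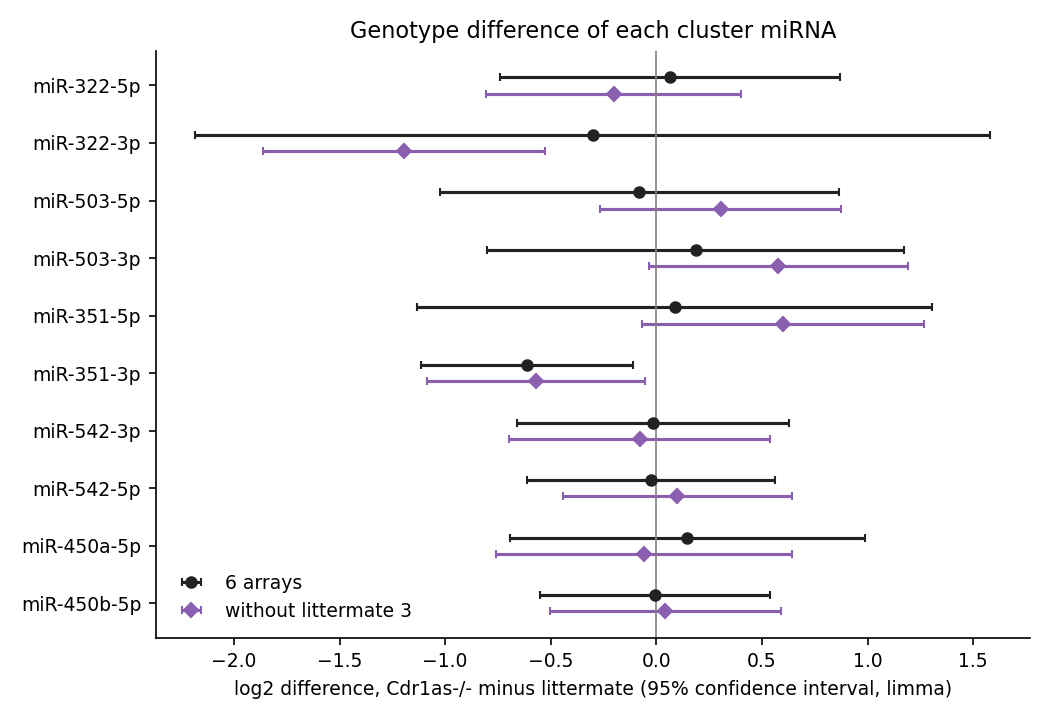
Log2 difference, Cdr1as-/- minus littermate (horizontal axis), of each cluster miRNA with its 95% confidence interval from limma, over 6 arrays (black circles) and without littermate 3 (purple diamonds). The intervals of miR-351-3p lie below 0 in both settings, and that of miR-322-3p lies below 0 without littermate 3.

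Across the cluster, 1 of 10 members, miR-351-3p, had an unadjusted p below 0.05 over 6 arrays, and it was lower. Among all 1831 miRNAs, 0.218% were lower and 0.109% higher at that threshold, and miR-351-3p ranked at 3 by p, while 0% passed an adjusted p of 0.05. Without littermate 3, 2 of 10 members passed the unadjusted threshold, miR-322-3p and miR-351-3p, both lower, against 10.5% lower and 2.73% higher of all miRNAs and 0% after adjustment. With the methods' t-test over 6 arrays, the unadjusted p of miR-351-3p was 0.000879 and its adjusted p 0.623. A share of 1 in 10 here includes the member that was known to be lower, and nothing about the cluster is read from it.

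The groups did not overlap over 6 arrays for 1 of 10 members, miR-351-3p, lower in Cdr1as-/- mice, against 2.73% lower and 0.437% higher of all miRNAs. Without littermate 3, 2 of 10 members were lower without overlap (miR-322-3p and miR-351-3p) and 2 of 10 higher (miR-503-5p and miR-503-3p), against 19.9% and 20.3% of all miRNAs, so these shares were close to those of the array as a whole. The median log2 difference of the 10 members was -0.01 over 6 arrays, where that of all miRNAs was -0.07, and -0.01 without littermate 3, where that of all miRNAs was 0.09. Of the members, 6 were lower and 4 higher over 6 arrays, and 5 were lower and 5 higher without littermate 3.

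**Figure D4:**
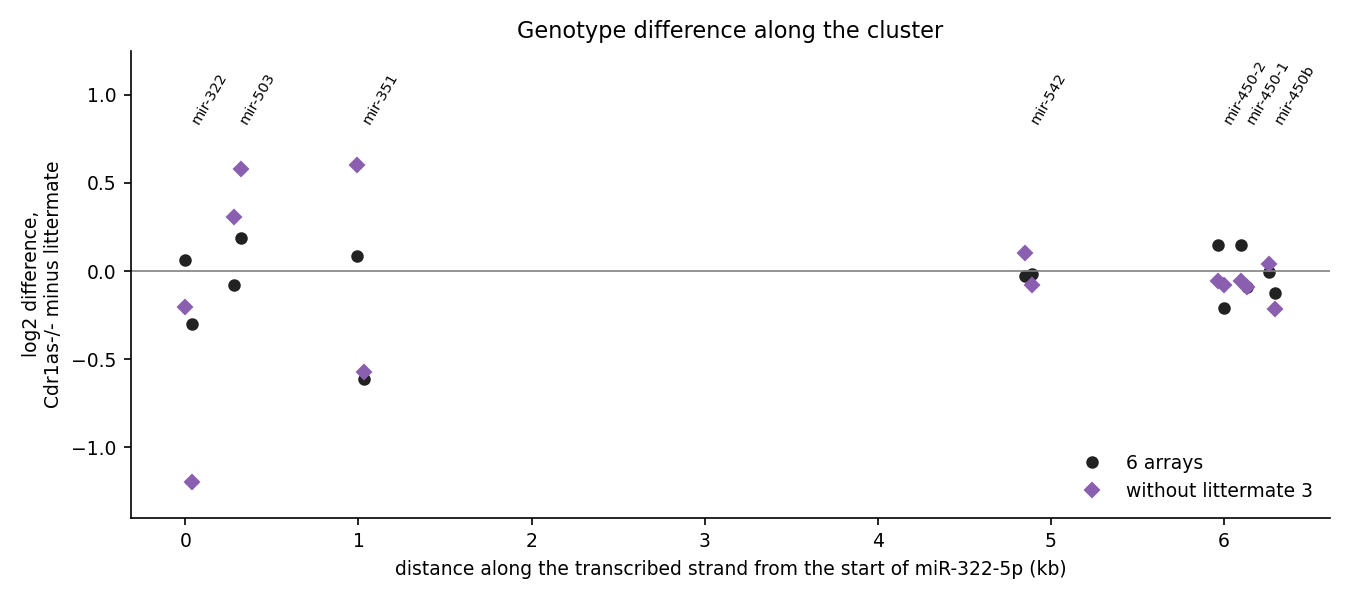
Log2 difference, Cdr1as-/- minus littermate (vertical axis), of the 10 members and of the 3p strands of the miR-450 hairpins against the distance in kb from the start of miR-322-5p along the transcribed strand (horizontal axis), over 6 arrays (black circles) and without littermate 3 (purple diamonds). miR-450a-5p is drawn at both of its copies. Without littermate 3 the values spread from -1.20 to 0.60 in the first 3 hairpins and from -0.21 to 0.10 in the downstream ones.

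The per-array difference of miR-351-3p minus each of the 9 partners describes how far the partners stood from it. Since miR-351-3p was known to be lower and had the lowest log2 difference of the 10 over 6 arrays, a negative value over these arrays follows from that choice and is no test. The values ran from -0.80 against miR-503-3p to -0.31 against miR-322-3p, and for 3 partners, miR-542-3p, miR-542-5p, and miR-450b-5p, all Cdr1as-/- mice were below all littermates. These 3 were among the dim members. Without littermate 3, the difference against miR-322-3p turned to 0.62 and the other 8 stayed negative. In that setting 7 of the 9 separated the groups, higher in Cdr1as-/- mice against miR-322-3p and lower against the rest of them. Of all single miRNAs, 2.73% were lower and 0.437% higher without overlap over 6 arrays, and 19.9% and 20.3% without littermate 3. A share for such differences was computed in neither setting. These differences too contain the level of miR-351-3p, which by itself separated the groups in both settings.

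The profile of miR-351-3p over the mice was set beside those of all other miRNAs. With only 9 partners among so many miRNAs, a closest profile outside the cluster was likely beforehand and is no test. The likeness was the root mean square difference between centred log2 levels, computed against each of 1830 miRNAs. Over 6 arrays the closest miRNAs were miR-7069-5p (0.0988), miR-7647-3p (0.123), and miR-6976-3p (0.123), whereas the closest partner, miR-450b-5p, was at rank 281 with 0.320 and the other strand, miR-351-5p, at rank 1332 with 0.645. The median over all miRNAs was 0.476. miR-542-5p, miR-542-3p, and miR-503-5p were also below it, and the remaining partners were above. Without littermate 3 the closest were miR-669a-3-3p (0.0469), miR-467e-3p (0.0497), and miR-3091-3p (0.0520), and the closest partner was miR-322-5p at rank 354 with 0.265. The median over all miRNAs was 0.422 there. miR-542-3p, miR-450b-5p, miR-542-5p, miR-322-3p, and miR-450a-5p were also below it, at ranks 480 to 794. miR-503-5p, miR-503-3p, and miR-351-5p were above it, at ranks 1036 to 1619. These are descriptions over 6 or 5 mice.

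**Figure D5:**
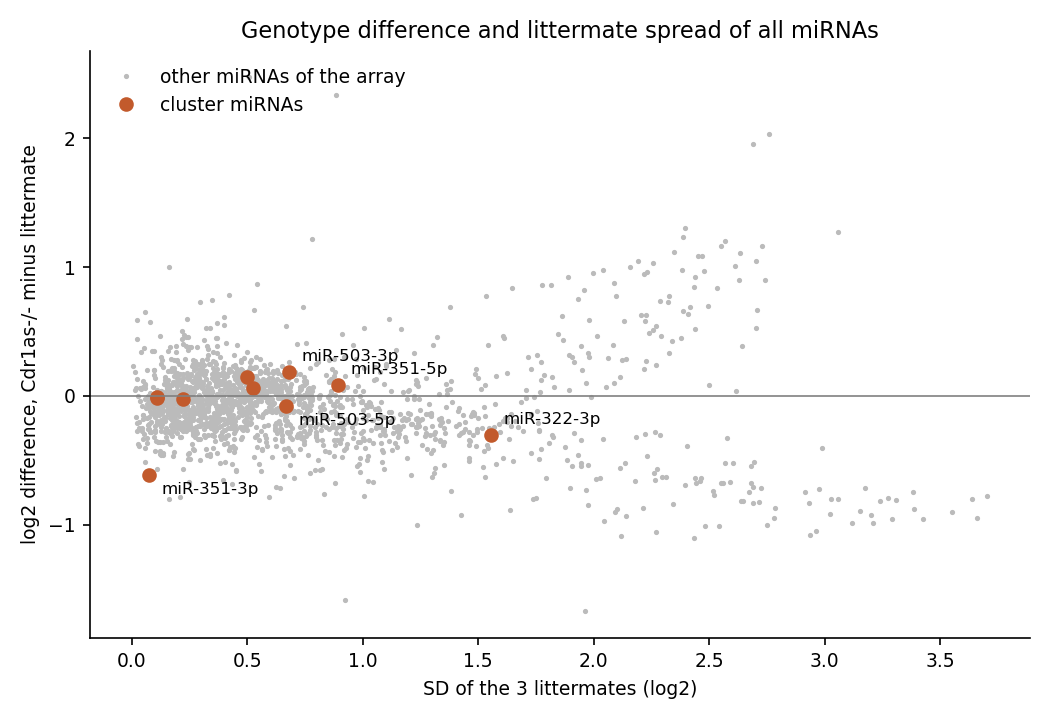
Log2 difference, Cdr1as-/- minus littermate over 6 arrays (vertical axis), against the SD of the 3 littermates (horizontal axis, log2) for 1831 miRNAs, the 10 cluster miRNAs in orange and the others in grey. miR-351-3p combines a difference of -0.61 with a littermate SD of 0.08, while miR-322-3p has a littermate SD of 1.56.

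All other miRNAs of the table with the seed of miR-322-5p or of miR-351-5p were then counted, a list added after seeing the data. miR-6966-5p, which has the seed UCGGGGA of miR-542-5p, was not part of it. Of the 10 with the seed of miR-322-5p (miR-15a-5p, miR-15b-5p, miR-16-5p, miR-195a-5p, miR-195b, miR-497a-5p, miR-1907, miR-6342, miR-6353, and miR-6419), 0 had an unadjusted limma p below 0.05 in either setting, and their median log2 difference was 0.02 over 6 arrays and -0.25 without littermate 3. Over 6 arrays 5 of them were lower and 5 higher, and without littermate 3, 6 and 4. The 7 of the earlier family list, the first 6 of these and miR-497b, had medians of 0.39 and -0.35. Without littermate 3, miR-15a-5p, miR-15b-5p, miR-16-5p, miR-195a-5p, and miR-497a-5p were lower (-0.79 to -0.31) and miR-195b and miR-497b higher. The groups did not overlap there for miR-15b-5p and miR-16-5p, against 19.9% of all miRNAs lower without overlap. Of the 4 with the seed of miR-351-5p (miR-125a-5p, miR-125b-5p, miR-6367, and miR-6394), 0 had an unadjusted limma p below 0.05 in either setting, and their median log2 difference was -0.02 in both. miR-125a-5p and miR-125b-5p themselves had log2 differences of -0.02 and 0.86 over 6 arrays and of -0.39 and -0.19 without littermate 3. miR-497b, which is named with the miR-15/16 family but does not carry its seed, had log2 differences of 0.28 and 0.38 in these settings. Neither had an unadjusted limma p below 0.05.

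Markers of the other cell types of the mucosa did not separate the groups over 6 arrays either. The summed level of 5 smooth muscle and mesenchyme markers was 11.31, 11.25, and 7.13 in littermates 1, 2, and 3, against 12.52, 12.22, and 10.08 in Cdr1as-/- mice 1, 2, and 3 (log2), and that of 5 immune markers was 12.34, 12.41, and 9.11 against 12.05, 12.65, and 11.89. The summed level of 3 erythroid markers was 10.08, 8.25, and 6.77 against 7.61, 8.18, and 7.70. That of 3 striated muscle markers was 8.98, 8.82, and 9.14 against 9.96, 9.10, and 9.30, and that of 2 neural markers was 4.68, 4.51, and 4.63 against 4.87, 4.42, and 4.49. Without littermate 3, the erythroid sum was lower and the striated muscle sum higher in every Cdr1as-/- mouse than in littermates 1 and 2. The members of these lists did not move together. The erythroid miR-486a-5p was higher (log2 difference 0.58) and the other 2 lower. The striated miR-1a-3p was lower (-0.11) and the other 2 higher, and for each of these 3 the groups overlapped. Of all single miRNAs, 19.9% were lower and 20.3% higher without overlap in this setting. Of all marker miRNAs, 0 passed an unadjusted limma p of 0.05 over 6 arrays, and 1, the erythroid miR-451a, did so without littermate 3, where it was lower (log2 difference -1.50, unadjusted p = 0.0151, adjusted p = 0.270). In that setting 10.5% of all miRNAs were lower and 2.73% higher at that threshold. On these arrays the summed smooth muscle, immune, and erythroid levels of littermate 3 were the lowest, as was its level of miR-322-3p. The part of these markers in the differences of the cluster was not tested.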

How the data were processed

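Arrays of 3 littermates and 3 Cdr1as-/- mice were grouped by the genotype and replicate number of their labels. Per the labels, total RNA was dephosphorylated and labelled with Cy3 at its 3′ end, and the scanner output came from Agilent Feature Extraction 11.0.1.1; the study's methods name a miRCURY LNA array. The authors deposited background-subtracted intensity per spot, not normalized between arrays, and normalized log2 values of probes and of 1831 miRNAs, whose normalization method is not given in the sources used here. The deposited fold changes and p-values of the authors' comparison were not used. Each of the 1831 values equalled the log2 of the mean unlogged value of 1 to 5 probes, within 0.0001, which assigned 8437 probes. Arrays have no count depth, so their number limits the precision.

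Genotype differences in the deposited values came from limma (version 3.58.1, under R 4.3.3) over all miRNAs, with Benjamini-Hochberg adjustment, and by two-sided exact permutation. The code for limma was also run on simulated data with known differences, with the spread taken from the fit of the real data. Other steps used Python 3.11.15, NumPy 2.4.6, pandas 2.3.3, SciPy 1.17.1, and matplotlib 3.10.9. Alternatives were other scalings and background corrections of the scanner signal (75th percentile, quantile, normexp with an offset of 50), a filter on dim probes, the methods' t-test, a variance prior with a trend, a block for the replicate number or for the slide, and each array left out. Apart from the linear mean over probes, the scanner settings took for each miRNA only the probe with the highest mean over the arrays. Slide 1 held all 3 littermates and Cdr1as-/- mouse 1, and slide 2 the other Cdr1as-/- mice, so with the slide as a block the difference rests on mouse 1. The scaled scanner signal without littermate 3, the single probes, and the lists of all miRNAs with a shared seed were added after seeing the data. The members, the seed families, the arms of the same hairpins, the 3 closest profiles, and the marker lists are the miRNAs named, and all were chosen with earlier results of these data known. The labels do not say more of how the mice were drawn, so p-values measure the spread between these samples. The difference of miR-351-3p minus each partner, meant to be tested by permutation, is given as a description, with a p for its own other strand.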

Additional observations from a re-analysis of the deposited data

How the results depend on the processing

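No miRNA had an adjusted p below 0.05 with any of 17 alternatives (0 in each, as in the limma fit of the deposited values). The number of miRNAs at an unadjusted p below 0.05 was 6 in that fit, 1 with the scanner signal over the 75th percentile of detected probes, 2 with the linear mean over probes, 3 with the replicate block, 21 with the methods' t-test (19 lower and 2 higher), and 197 with the scanner signal without littermate 3. It ran from 1 to 242 when 1 array was left out, the highest without littermate 3 and 25 without Cdr1as-/- mouse 2. The number of members at that threshold was 1, became 0 in the scanner settings with 6 arrays, the replicate block, the slide block, and the intensity trend, was 1 with the scanner signal without littermate 3, and ran from 0 to 2 when 1 array was left out.

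miR-351-3p was lower throughout but its p was above 0.05 with the scanner signal, where its log2 difference was -0.55 (75th percentile of detected probes), -0.45 (75th percentile of all probes), -0.48 (quantile), -0.33 (normexp and quantile), -0.71 (linear mean), and -0.66 (without littermate 3), with the slide block (-0.71), with the intensity trend (-0.61, unadjusted p = 0.115), and with the replicate block (-0.61, unadjusted p = 0.117). The replicate block changed no other call of a member. The deviations of same-numbered mice from their group means had correlations of -0.76, 0.56, and -0.22 for replicates 1, 2, and 3. Littermate 2 had -0.81 with Cdr1as-/- mouse 1, much like littermate 1. With littermate 3 far from both, the littermate deviations mostly follow that array. The correlations therefore cannot show whether the numbers pair the mice. Leaving out 1 array gave -0.66 to -0.57.

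The other members, none of them past the threshold over 6 arrays, changed direction in some settings. In the order 75th percentile of detected probes, 75th percentile of all probes, quantile, normexp, and linear mean, miR-351-5p was at -0.57, -0.46, -0.25, -0.12, and -0.30, and with the scanner signal without littermate 3 at -0.036. miR-542-3p was at 0.00063, 0.061, and 0.14 with all probes, quantile, and normexp. miR-503-3p was at -0.023 with normexp and -0.069 with the linear mean, which also gave -0.058 for miR-322-5p and -0.012 for miR-450a-5p, and normexp gave 0.0016 for miR-450b-5p. The slide block gave 0.038 for miR-542-5p. With the scanner signal without littermate 3, miR-322-5p was at -0.33, miR-503-5p at 0.36, and miR-450a-5p at -0.30. Leaving out 1 array moved miR-322-5p from -0.20 to 0.32, miR-322-3p from -1.20 to 0.21, miR-503-5p from -0.28 to 0.30, miR-503-3p from -0.037 to 0.58, miR-351-5p from -0.22 to 0.60, miR-542-3p from -0.22 to 0.10, miR-542-5p from -0.10 to 0.10, miR-450a-5p from -0.059 to 0.42, and miR-450b-5p from -0.11 to 0.088. The difference of miR-351-3p minus miR-351-5p was 0.013 with either 75th percentile, and that of miR-351-3p minus miR-322-3p was 0.58 with the scanner signal without littermate 3 and ran from -0.85 to 0.62 when 1 array was left out. Apart from littermate 3, the cause of these moves was not tested. Precision is limited by 3 arrays per group. Some probes of the downstream members had signal near background, and its part in their precision was not tested. Over 6 arrays the limma standard errors of the downstream members were 0.22 to 0.35. Those of the first 3 hairpins were 0.33 to 0.77, apart from miR-351-3p with 0.21.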
